A study of Mus musculus with 24 samples.

Results

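AP-1 genes and immediate early genes, the latter switched on by cells within minutes of a stimulus, were followed through 24 mouse kidney libraries. They were the AP-1 subunits Fos, Fosb, Fosl2, Jun, Junb and Jund and the partner factor Atf3. The others were the zinc-finger factors Egr1 and Klf6 and the phosphatase Dusp1. These 10 genes were chosen by symbol from among 54532 genes counted, with earlier results of these data known, as were the gene lists below. Counts of genes called therefore describe these choices and are no test of them against all tested genes. All 10 symbols matched 1 Ensembl gene each, and all 10 were abundant enough to be tested. Fosb was so mainly through its KO libraries, which bears on its place among the genes called higher below. Each library came from kidney of mice fed a Western diet for 2 or 12 weeks. The knockout (KO) mice lacked Lrp2, which encodes the endocytic receptor megalin, in proximal tubule cells, and the wild-type (WT) mice were their littermates, so that all 4 groups had the diet and no group had a control diet. There were 6 libraries of each genotype at each duration. The labels write the genotypes as PTC LRP2-SM22 +/+ and -/- and do not explain SM22. The Cre driver, the age and the sex of the mice, the time of day of harvest and whether each library came from a separate mouse are not stated in the labels, so the p-values measure the spread between these libraries, which may be partly technical.

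AP-1 is a dimer of Jun proteins with each other or of a Jun with a Fos or ATF protein. Most of its subunits, with Egr1 and Klf6, belong to the immediate early genes. These are transcribed without new protein synthesis after growth factor, cytokine or stress signals reach the MAP kinases. Their transcripts are mostly short-lived, and Dusp1 is part of the same early response: it encodes a phosphatase that removes the activating phosphates from MAP kinases. In kidney, injury of the tubule is a well-known inducer of Atf3, Fos, Jun, Egr1 and Klf6, and handling of the tissue after death is known to induce the same class of genes.

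The start-site sequences of Fos, Atf3, Jun and Dusp1 are shown because these genes span the observed directions, with the largest rise, intermediate rises and the fall among them, and because each holds a letter match to a CRE or ATF/Jun motif. The windows are RefSeq promoter entries on GRCm38.p6, 100 bases each, read 5′ to 3′ on the gene's own strand. Positions are numbered from the start site, with the base before it at -1. Capitals mark the matches.
Fos, chr12:85473775-85473874, plus strand: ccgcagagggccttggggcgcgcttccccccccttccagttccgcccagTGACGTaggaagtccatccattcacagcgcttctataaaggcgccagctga
Atf3, chr1:191183334-191183433, minus strand: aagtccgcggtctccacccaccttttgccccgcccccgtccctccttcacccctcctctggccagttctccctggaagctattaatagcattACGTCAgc
Jun, chr4:95052223-95052322, minus strand: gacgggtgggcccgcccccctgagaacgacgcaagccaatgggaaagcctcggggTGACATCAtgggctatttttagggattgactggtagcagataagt
Dusp1, chr17:26508588-26508687, minus strand: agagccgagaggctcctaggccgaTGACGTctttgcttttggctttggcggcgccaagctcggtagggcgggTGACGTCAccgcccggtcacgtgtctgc

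In the 250 bases before the RefSeq start, both strands searched, TGACGT was found in Fos (-66 to -61), Atf3 (reverse strand, -8 to -3) and Dusp1 (-191 to -186, and on both strands inside the palindrome TGACGTCA at -143 to -136). Of 32851 mouse promoters of the same length, 6.47% held TGACGT and 1.55% held TGACGTCA, which contains it. TGACATCA was found in Jun (-45 to -38) and in Klf6 (-119 to -112), against 2.93% of all promoters. Neither the consensus AP-1 site TGAGTCA (4.46% of promoters) nor the CArG box bound by serum response factor (1.47%) was found in these windows of the 9 genes with an entry. Sequence farther than 250 bases before the start was not searched, and Egr1 had no entry. The genes may therefore hold such sites outside these windows. By GENCODE M21 all 250 bases of the Fosl2 entry lie in exons of Fosl2 itself, so for that gene the window is not upstream sequence. The same holds for 47 bases of the Dusp1 entry, 7 each of Atf3 and Klf6 and 6 of Fosb. For Junb and Jund the bases just after the RefSeq start were found in no GENCODE transcript of the gene. The Jund window ends at 70697738 and the GENCODE gene starts at 70698949, so the annotations differ in the start. On the minus strand the Dusp1 entry ends at 26508722 and the GENCODE gene at 26562128. For Atf3, on the same strand, these ends are 191183583 and 191218039. The entries of Dusp1 and Atf3 thus lie inside the annotated genes, and starts farther upstream were not searched. A letter match is a description of the window and was not tied to any measurement here. Dusp1, the gene that fell, and Fos, which rose, both carry TGACGT.

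Total counts ran from 15.6 to 34.1 megacounts per library at 2 weeks and from 11.3 to 15.2 megacounts at 12 weeks, and levels below are in CPM, the count of a gene per megacount of its library after TMM scaling over all 24 libraries. The deleted gene behaved as labelled: Lrp2 stood at 1590 to 2290 CPM in WT and 192 to 584 CPM in KO at 2 weeks, and at 1410 to 2500 and 186 to 390 CPM at 12 weeks. One library, KO replicate 2 at 2 weeks, had the highest Lrp2 of the KO group and the highest mitochondrial share of that group, 10.1% of counts. The durations differed in more than the diet: the predicted gene Gm42418 had 0 counts in every library at 2 weeks and 71635 to 424892 in every library at 12 weeks, so diet duration, library making and the counting of reads, whose settings are not stated and may differ between the durations, cannot be told apart, whereas the genotypes were compared within each duration.

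After 2 weeks of diet, 8 of the 10 genes were higher in KO kidneys and Dusp1 was lower, with Jund not called, where 18.2% of the 17286 tested genes were called higher and 13.4% lower (edgeR quasi-likelihood test, Benjamini-Hochberg adjusted p under 0.05 over all tested genes). After 12 weeks 7 were higher, again with Dusp1 lower, and Jun and Egr1 were not called, against 20.7% of tested genes higher and 17.7% lower. The median log2 fold change of the 10 genes was 1.46 at 2 weeks and 1.08 at 12 weeks, against -0.01 and 0 over all tested genes. For 7 genes at 2 weeks (Atf3, Fos, Fosb, Fosl2, Jun, Junb and Klf6) every KO library lay above every WT library, which held for 10.3% of tested genes, and for 4 at 12 weeks (Atf3, Fosl2, Junb and Klf6), against 10.1%. These are whole-kidney RNA measurements, in which fewer or more cells of a type and less or more RNA per cell cannot be told apart.

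**Figure D1:**
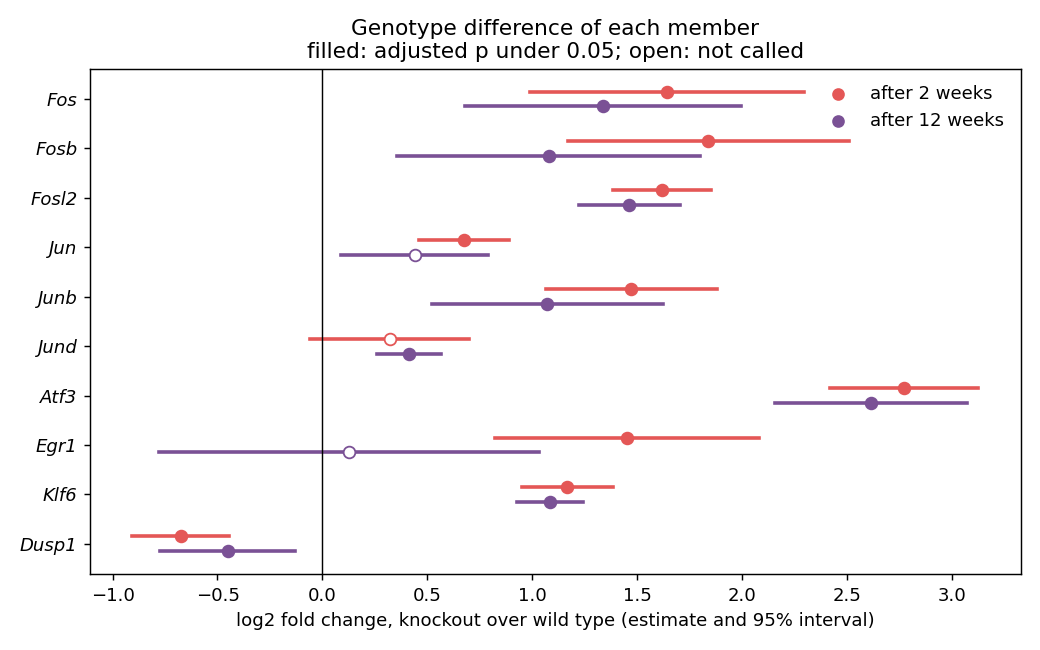
The log2 fold change of KO over WT (horizontal axis, point with its 95% interval) is drawn for the 10 genes after 2 and 12 weeks, with filled points at adjusted p under 0.05. Atf3 lies farthest to the right at both durations (2.77 and 2.61), Dusp1 is the one gene left of 0 at both, and Egr1 moves from 1.45 to 0.13.

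Among the Fos subunits, Fosl2 had the highest mean level per kilobase of exon in all 4 groups. Fosl2 and Fos were close, as in WT at 12 weeks (1.7 ± 0.307 and 1.57 ± 0.536 CPM per kb, mean ± SD, n = 6). Fosl2 encodes Fra-2 and lies on the plus strand at chr5:32135801-32157842 (mm10). Its levels were 13.4 (lowest), 14.5 (median) and 19.4 (highest) CPM in WT and 35.3, 48.5 and 55.3 CPM in KO at 2 weeks, and 12.1, 16.4 and 20.1 CPM against 37.2, 43.4 and 54.5 CPM at 12 weeks. The genotype groups stood well apart at both durations. KO was 3.07-fold higher at 2 weeks (log2 fold change 1.62, SE 0.12, edgeR adjusted p = 2.2e-08) and 2.76-fold higher at 12 weeks (1.46, SE 0.12, adjusted p = 1.1e-06).

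Fos itself, the founding member of the family (chr12:85473890-85477273, plus strand), had a much wider spread. At 2 weeks its levels were 1.65, 2.09 and 5.43 CPM in WT and 6.33, 7.35 and 15.8 CPM in KO. At 12 weeks they were 2.33, 3.44 and 5.61 CPM in WT and 5.09, 7.21 and 19.5 CPM in KO. The groups were separate at 2 weeks and touched at 12 weeks, where 1 WT library (5.61 CPM) exceeded 2 KO libraries (5.09 and 5.5 CPM). Fos was 3.12-fold higher in KO at 2 weeks (log2 fold change 1.64, SE 0.33, edgeR adjusted p = 0.0017) and 2.53-fold at 12 weeks (1.34, SE 0.34, adjusted p = 0.0065).

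Fosb, whose product has a shorter splice form that accumulates after repeated stimulation (chr7:19302696-19310051, minus strand), had the lowest level per kilobase of the 10 genes, with 3 to 41 counts per library. It passed the filter on low counts mainly through KO, with 3 to 27 counts in WT and 17 to 41 in KO at 2 weeks. At 12 weeks the counts were 3 to 9 in WT and 9 to 35 in KO. A gene so low in WT could hardly be called lower. Levels were 0.155, 0.264 and 0.75 CPM in WT and 0.962, 1.22 and 1.5 CPM in KO at 2 weeks. At 12 weeks they were 0.305, 0.454 and 0.879 CPM in WT and 0.653, 0.89 and 2.06 CPM in KO, and the groups overlapped. The rise was 3.58-fold at 2 weeks (log2 fold change 1.84, SE 0.34, edgeR adjusted p = 0.00041) and 2.11-fold at 12 weeks (1.08, SE 0.37, adjusted p = 0.03). The call at 12 weeks was lost when any one of 6 libraries was left out (WT replicates 2, 4, 5 and 6, KO replicates 4 and 5), with adjusted p between 0.021 and 0.097 over the alternatives tried. The fourth Fos gene, Fosl1, lies outside the set and was looked at after its values were seen: it had 1.02 ± 0.243 CPM in WT and 1.43 ± 0.266 CPM in KO (mean ± SD, n = 6) at 2 weeks, with an edgeR adjusted p of 0.11. At 12 weeks Fosl1 was close to absent in WT (0.0621 ± 0.0762 CPM). It was called higher in KO (0.345 ± 0.276 CPM), with a log2 fold change of 2.30 (SE 0.77, edgeR adjusted p = 0.028). Both 12-week means are near the floor. Fosl1 was lower at 12 than at 2 weeks in both genotypes (log2 fold change -3.89 in WT and -2.05 in KO). A change in Fosl1 RNA between the durations cannot be told apart from a difference in library making or counting.

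Of the Jun subunits, Junb, which can restrain Jun activity in some settings (chr8:84974484-84978718, minus strand), had the largest estimated change at each duration. Its levels were 14, 17.5 and 21.4 CPM in WT and 31.6, 44.5 and 74.8 CPM in KO at 2 weeks, and 15, 22.9 and 44.9 CPM against 46.3, 54.2 and 67.7 CPM at 12 weeks. No KO library fell into the WT range, but at 12 weeks the margin was narrow, since WT replicates 3 and 5 reached 44.9 and 44.1 CPM. KO was 2.77-fold higher at 2 weeks (log2 fold change 1.47, SE 0.21, edgeR adjusted p = 0.00014) and 2.1-fold at 12 weeks (1.07, SE 0.28, adjusted p = 0.011). Of its exonic length, 7.5% lies opposite Prdx2, and whether the counting used strand is not stated, so reads of this stretch cannot be told apart.

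Jun, the subunit that JNK kinases phosphorylate (chr4:95049034-95052222, minus strand), had 33, 41.8 and 54.6 CPM in WT and 56.1, 69.2 and 72.6 CPM in KO at 2 weeks. All 6 KO libraries lay above the WT range, and the rise was 1.6-fold (log2 fold change 0.67, SE 0.11, edgeR adjusted p = 0.00012). At 12 weeks WT spread from 37.3 through 51.2 to 72.1 CPM and KO from 55.6 through 71.6 to 85.1 CPM, so that the groups overlapped. The difference at 12 weeks was not called (log2 fold change 0.44, 95% interval 0.09 to 0.79, adjusted p = 0.068). It passed with DESeq2 (adjusted p = 0.035), in a fit of all 24 libraries (0.034), and without KO replicate 3 (0.044), WT replicate 3 (0.032) or WT replicate 5 (0.031), over a range of 0.031 to 0.16.

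Jund, the Jun gene that is expressed in most resting cells (chr8:70698949-70700616, plus strand), was the exception among the subunits at 2 weeks. WT libraries held 43.1, 44.3 and 54.7 CPM and KO libraries 31.8, 58.3 and 73.5 CPM, the KO libraries falling into 3 at 71.3 to 73.5 CPM and 3 at 31.8 to 45.3 CPM. The difference was not called (log2 fold change 0.32, 95% interval -0.06 to 0.70, edgeR adjusted p = 0.24). Without KO replicate 2, the library with the highest Lrp2 of its group, it was 0.44 with an adjusted p of 0.023, over a range of 0.023 to 0.41. At 12 weeks, with 82.8, 93.3 and 116 CPM in WT and 113, 125 and 131 CPM in KO, Jund was 1.33-fold higher in KO (log2 fold change 0.41, SE 0.08, adjusted p = 0.00086), with 1 WT library inside the KO range.

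Atf3, a stress-induced partner of Jun proteins that can repress as well as activate (chr1:191170296-191218039, minus strand), showed the largest difference of the 10. Levels were 0.884, 1.36 and 2.03 CPM in WT and 8.12, 9.11 and 10.7 CPM in KO at 2 weeks. At 12 weeks they were 1.02, 1.96 and 2.25 CPM in WT and 6.73, 10.6 and 14.1 CPM in KO. The lowest KO library was above the highest WT library at both durations by a wide gap. KO was 6.83-fold higher at 2 weeks (log2 fold change 2.77, SE 0.18, edgeR adjusted p = 4.2e-09) and 6.12-fold higher at 12 weeks (2.61, SE 0.23, adjusted p = 2.1e-06). Klf6, a Krüppel-like factor induced in injured tubules (chr13:5861482-5870394, plus strand), had 32.8, 42.4 and 46.1 CPM in WT and 73.9, 86.6 and 114 CPM in KO at 2 weeks. It had 35.7, 40.2 and 44.7 CPM against 74.2, 82.6 and 94.4 CPM at 12 weeks. KO was 2.25-fold higher (log2 fold change 1.17, SE 0.11, adjusted p = 3.9e-07) at 2 weeks and 2.12-fold higher (1.08, SE 0.08, adjusted p = 4.8e-07) at 12 weeks, with no overlap of the groups.

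Egr1, a zinc-finger activator that responds to serum response factor and ETS factors (chromosome 18, positions 34859823 to 34864984, plus strand), was called at 2 weeks and not at 12 weeks. At 2 weeks WT libraries held 5.22, 9.64 and 16.5 CPM and KO libraries 16.3, 23.8 and 46 CPM, with an overlap of 1 library on each side. The difference was 2.74-fold (log2 fold change 1.45, SE 0.32, edgeR adjusted p = 0.0046). At 12 weeks WT ran from 9.52 through 25.5 to 59.1 CPM and KO from 22.1 through 25.8 to 69.8 CPM, with medians almost equal. The log2 fold change was then 0.13 (95% interval -0.78 to 1.03, edgeR adjusted p = 0.86). That interval overlaps the one at 2 weeks (0.82 to 2.08). Without KO replicate 4, the library at 69.8 CPM, the 12-week log2 fold change turned to -0.24.

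Dusp1 (chr17:26505590-26562128, minus strand) went the other way. At 2 weeks WT libraries held 46.9, 69.2 and 82.6 CPM and KO libraries 32.5, 40.8 and 47.2 CPM. The groups met only at WT replicate 4 (46.9 CPM) and KO replicate 6 (47.2 CPM). KO stood at 62.6% of WT (log2 fold change -0.68, SE 0.12, edgeR adjusted p = 0.00026), and the call held under all 19 alternatives, with log2 fold changes of -0.76 to -0.61. At 12 weeks WT libraries held 53.1, 64.1 and 87.3 CPM and KO libraries 37.2, 46.7 and 66.2 CPM, and KO stood at 73.2% of WT (-0.45, SE 0.16, adjusted p = 0.044). That second call was at the edge: it was lost with upper-quartile scaling (adjusted p = 0.054), without a filter on low counts (0.12) and without any one of 7 libraries (KO replicates 1, 2, 3 and 5, WT replicates 3, 4 and 5), over a range of 0.012 to 0.12, while the direction was kept in all 19.

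**Figure D2:**
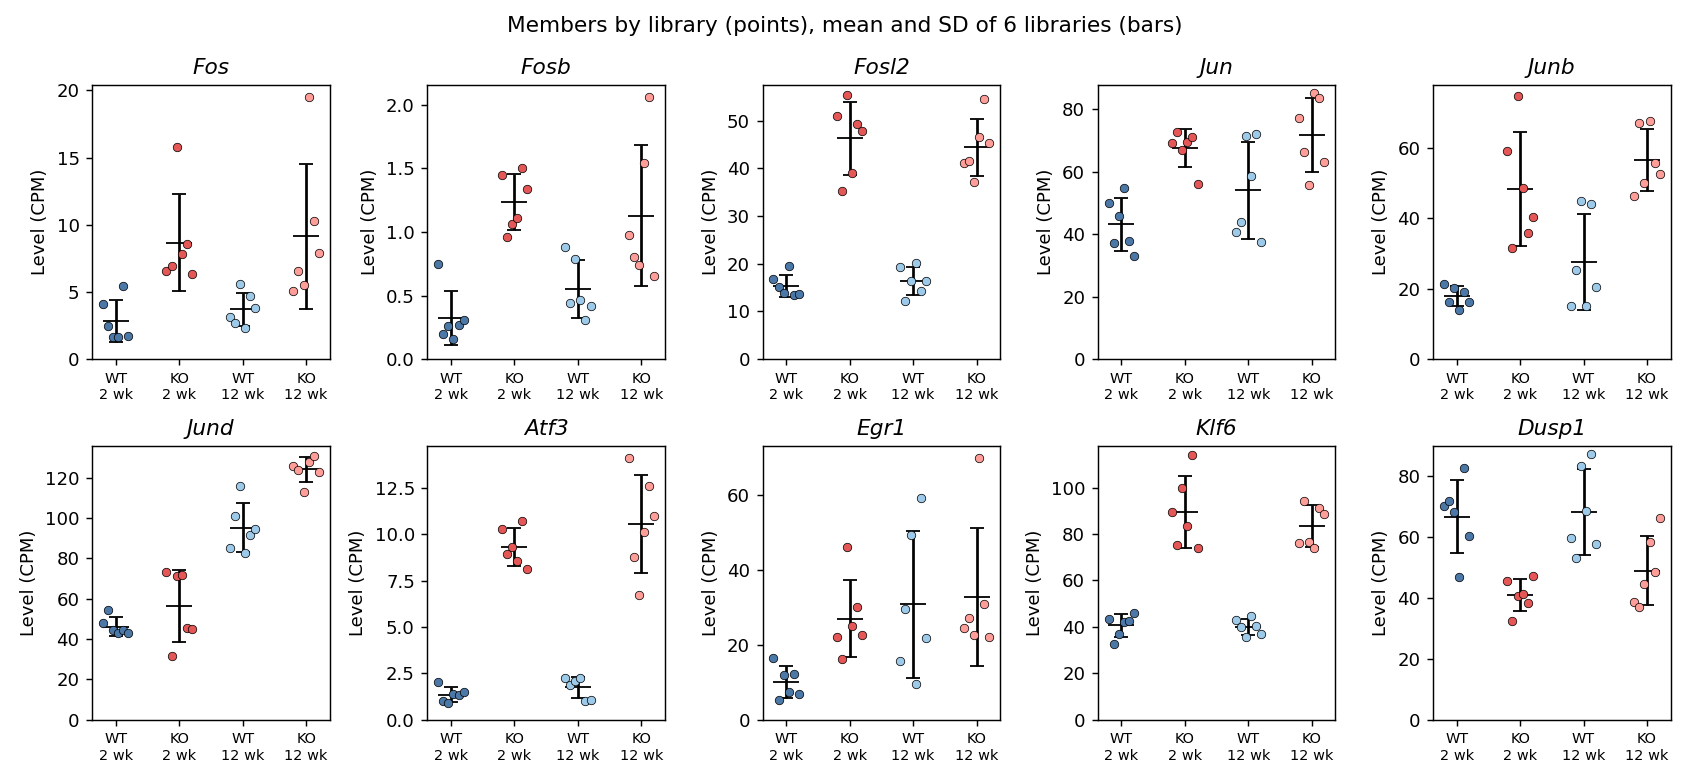
Each panel plots the level of 1 gene in CPM for the 24 libraries (points) by group, with the mean and SD of 6 libraries. Atf3, Fosl2 and Klf6 separate by genotype at both durations, Egr1 spreads from 9.52 to 59.1 CPM in WT at 12 weeks, and Dusp1 is the panel where KO lies below WT.

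No gene of the set had a genotype difference that was called as changing between 2 and 12 weeks. In the interaction test (the KO to WT difference at 12 weeks minus that at 2 weeks) edgeR called 0 of 10 and DESeq2 called 0, with 1 gene, Egr1, at an unadjusted p under 0.05, where edgeR called 0.174% of all tested genes. For Egr1 the change was -1.32 on the log2 scale (95% interval -2.45 to -0.20, unadjusted p = 0.032, edgeR adjusted p = 0.42). Fosb followed in size with -0.76 (interval -1.76 to 0.24, adjusted p = 0.62) and Junb with -0.40 (-1.10 to 0.30, adjusted p = 0.73). The other 7 lay between -0.30 (Fos) and 0.23 (Dusp1, interval -0.19 to 0.64). The interval of Klf6 was the narrowest, -0.36 to 0.19 around -0.08. The shift of Egr1 and Jun from called to not called is therefore not shown to be a difference between the durations.

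Between the durations, 2 genes were called in WT and 1 in KO, all of them higher at 12 weeks, where 15.8% and 17.7% of tested genes were called higher. Jund was 2.06-fold higher in WT (log2 fold change 1.04, SE 0.15, edgeR adjusted p = 3.9e-06) and 2.2-fold higher in KO (1.14, SE 0.14, adjusted p = 9.2e-07), and the 12-week libraries lay above all 2-week libraries in both genotypes, as did 8.28% and 7.03% of tested genes. Egr1 was 3.04-fold higher in WT (log2 fold change 1.6, SE 0.42, adjusted p = 0.006), with overlapping groups, and was not called in KO (0.28, SE 0.40, adjusted p = 0.62). Fosb (1.17, adjusted p = 0.028 without WT replicate 1 at 2 weeks), Junb (0.72 and 0.73, adjusted p = 0.041 and 0.036 without WT replicate 1 or 4 at 12 weeks) and Jun (0.40, adjusted p = 0.049 without WT replicate 6 at 12 weeks) passed in WT only when 1 library was left out.

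The Jund difference between durations has a companion in the annotation, described after its values were seen. Of its exonic length, 52.6% lies opposite the antisense gene Gm11175, which had 0 counts in every 2-week library, 4 to 11 in WT and 10 to 30 in KO at 12 weeks. Of 229 tested genes with at least 50% of their exonic length opposite another gene, 159 were higher and 38 lower at 12 weeks in WT (69.4% and 16.6%, median log2 fold change 1.42), and 165 and 34 in KO. Of 12023 tested genes with no such base, 1511 were higher and 1737 lower in WT (12.6% and 14.4%, median 0). Mt2, with 73.5% of its exonic length opposite Gm45774, had 0 to 9 counts per library at 2 weeks and 91 to 496 at 12 weeks. In the genotype comparisons the same 229 genes had medians of -0.05 at 2 weeks and -0.03 at 12 weeks. Fewer of them were called. At 2 weeks 6.99% were higher and 5.24% lower, against 19.7% and 13.2% of the 12023 genes with no such base. At 12 weeks the shares were 14.4% and 10%, against 21.9% and 17.4%. Whether the overlap bears on Jund not being called at 2 weeks was not tested. By the duration values, Jund reads may have been counted differently at the durations, and a change in Jund RNA cannot be told apart from that. Egr1, the other gene called between durations, has no annotated exonic overlap in the annotation used.

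Per kilobase of exon, a rough scale for comparing genes with one another, the Jun family was far above the Fos family. The length was that of all annotated exons of a gene together (9680 bases for Fosl2, 2352 for Fos), so close ranks depend on the annotated transcripts. The summed Fos, Fosb and Fosl2 level was 2.84 ± 0.674 CPM per kb in WT and 8.66 ± 2.07 in KO at 2 weeks, and 3.35 ± 0.568 and 8.65 ± 2.73 at 12 weeks (mean ± SD, n = 6). Jun, Junb and Jund summed to 49 ± 3.69 and 76 ± 17.2 CPM per kb at 2 weeks, and to 86 ± 15.6 and 122 ± 9.38 at 12 weeks. In WT at 2 weeks the mean level per kb descended from Jund (27.7) through Dusp1 (20.1), Jun (13.5), Klf6 (9.24), Junb (7.74), Egr1 (2.22), Fosl2 (1.58), Fos (1.21) and Atf3 (0.631) to Fosb (0.0517). In KO at 2 weeks the order was Jund (33.8), Jun (21.2), Junb (21), Klf6 (20.3) and Dusp1 (12.4), then Egr1 (6.03), Fosl2 (4.78), Atf3 (4.32), Fos (3.68) and Fosb (0.198). Dusp1 thus moved from the second to the fifth place, and Jun, Junb and Klf6, which are neighbours in KO, lay within the spread of each other. Jund made up 56.7% of the Jun family level in WT and 43.7% in KO at 2 weeks, and 67.1% and 61.4% at 12 weeks, a share that carries the overlap given above.

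**Figure D3:**
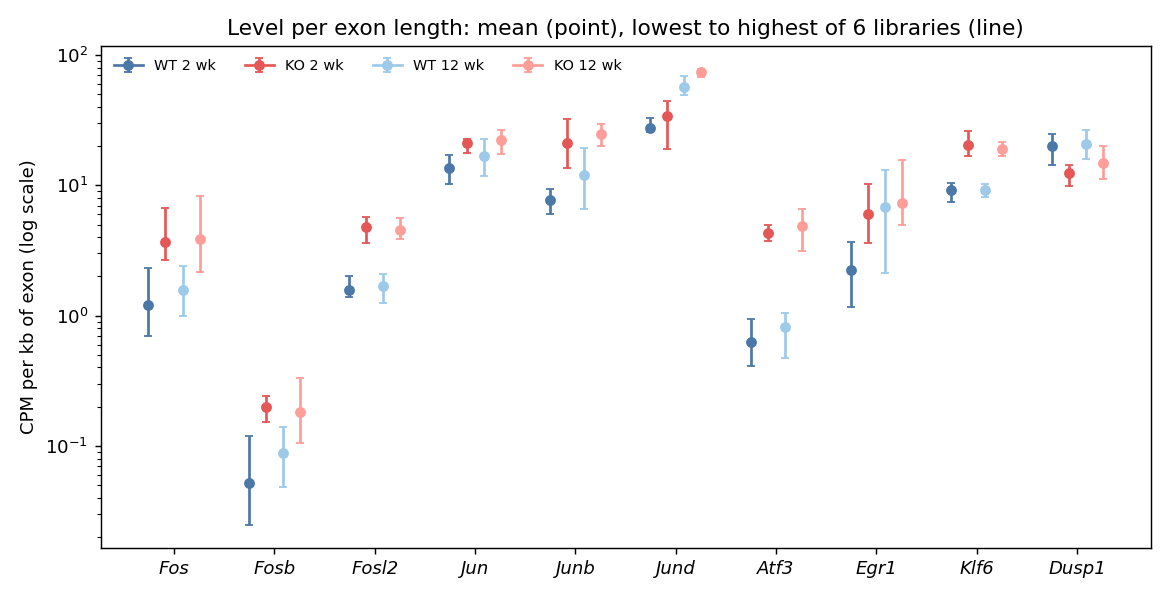
The level per kilobase of exon (log axis) is drawn for the 10 genes in the 4 groups, as the mean of 6 libraries (point) and the range from lowest to highest (line). Jund and Dusp1 stand at the top in WT, Fosb is at the bottom in all groups, and the KO points of Atf3 lie clear of its WT points.

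Within a group, the 10 genes did not all vary together. After the group means were removed from log2 CPM, Fos varied most closely with Egr1 (24 libraries, Pearson r = 0.73, permutation p = 0.00017, adjusted over 9 relations 0.0015; Spearman rho = 0.6, permutation p = 0.0053, adjusted 0.03), and r was 0.69 without the 2 libraries farthest from the median of Fos. Junb followed (r = 0.56, permutation p = 0.001, adjusted 0.0045; rho = 0.53, permutation p = 0.0068, adjusted 0.03), with r = 0.62 without those 2. Dusp1 had r = 0.55 (permutation p = 0.011, adjusted 0.034) and rho = 0.53 (permutation p = 0.017, adjusted 0.052), with r = 0.45 without the 2. Although Dusp1 fell in KO and Fos rose, libraries with high Fos for their group tended to have high Dusp1 in WT at 2 weeks (r = 0.73), WT at 12 weeks (0.69) and KO at 12 weeks (0.62), but not in KO at 2 weeks (-0.14), with 6 libraries behind each value. For Egr1 the within-group values were 0.55, 0.9, 0.82 and 0.91 in WT and KO at 2 weeks and WT and KO at 12 weeks.

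Of the 4 genes whose genotype groups stood apart at both durations, Junb is among these, while the relation of Atf3, Klf6 and Fosl2 with Fos did not pass: r was 0.08 for Atf3 (adjusted permutation p = 0.76), 0.07 for Klf6 (0.76) and 0.17 for Fosl2 (0.56). The within-group values of these 3 were uneven, in WT and KO at 2 weeks and WT and KO at 12 weeks: 0.44, 0.16, -0.42 and 0.12 for Atf3, 0.15, 0.58, -0.75 and -0.13 for Klf6, and -0.19, 0.5, -0.18 and 0.64 for Fosl2. For Junb they were 0.54, 0.63, 0.83 and 0.67. Among the genes themselves, Egr1 and Junb had r = 0.82, and Atf3 was closest to Fosb (0.61). The library with the highest Fos had the highest Egr1 of its group in KO (replicate 3 at 2 weeks with 15.8 and 46 CPM, replicate 4 at 12 weeks with 19.5 and 69.8 CPM). In WT it had the second highest Egr1 (replicate 5 at 2 weeks with 5.43 and 12.1 CPM, replicate 3 at 12 weeks with 5.61 and 49.2 CPM). Of 11308 tested genes with a mean of at least 5 CPM, those nearest to Fos outside the set were Msrb3 (r = 0.69), Lrrfip2 (0.64), Zfp273 (0.64), Fam189a2 (0.63) and Avpr1a (0.62). Those nearest to Atf3 were Dusp8 (0.81), Srsf3 (0.74), Acrbp (0.72), Zfp715 (0.72) and Purg (0.71). These r values were picked as the highest of many and have no test.

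**Figure D4:**
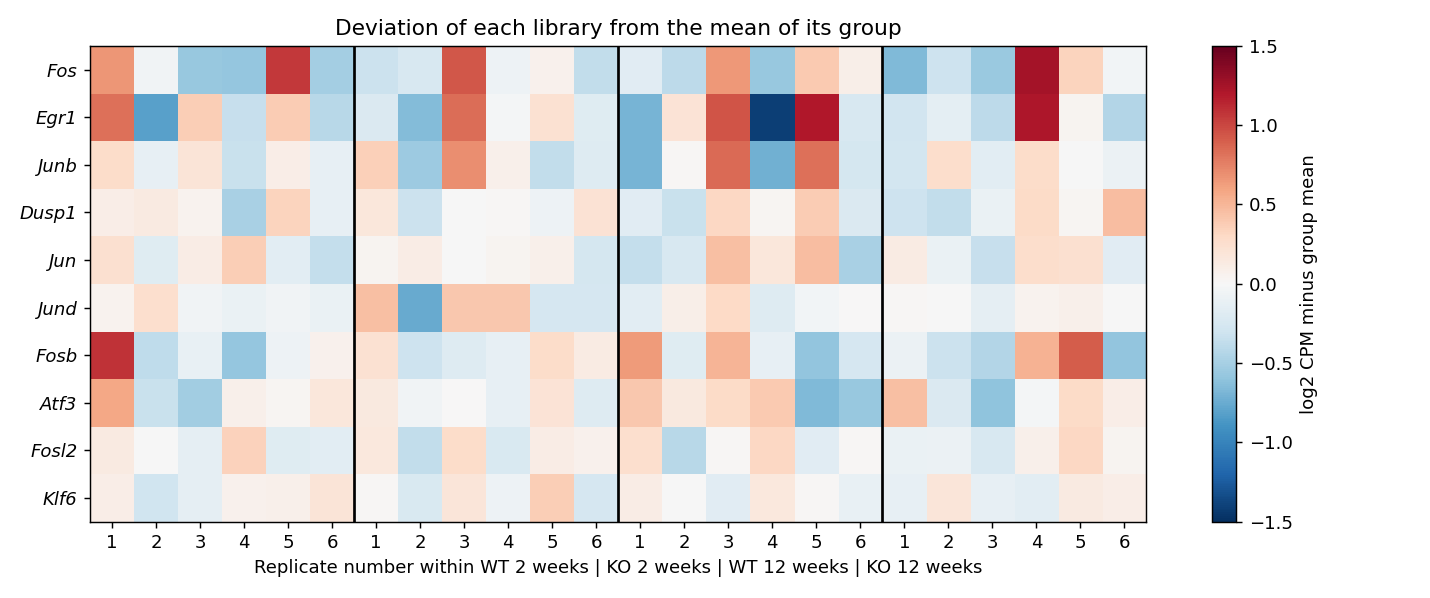
Rows are the 10 genes and columns the 24 libraries, and colour gives log2 CPM minus the mean of the library's group (red above, blue below). In the library with the highest Fos of each group (WT replicate 5 and KO replicate 3 at 2 weeks, WT replicate 3 and KO replicate 4 at 12 weeks), Egr1 deviates by 0.38 to 1.22 and Junb by 0.10 to 0.85, against -0.03 to 0.29 for Atf3 and -0.17 to 0.18 for Klf6.

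Beyond the 10 genes, other immediate early genes were higher as well. Of 32 tested, 21 rose in KO at 2 weeks (65.6%, against 18.2% of all tested genes) and 23 at 12 weeks (71.9%, against 20.7%) and the others were not called, with median log2 fold changes of 0.62 and 0.82. Some, such as Egr2, Egr3 and Nr4a3, were near the floor in WT at 2 weeks (0.23, 0.30 and 0.28 CPM). Genes so low in WT can pass the filter on low counts through KO and can then hardly be called lower. Socs3, a feedback inhibitor of cytokine signalling, was 10.6-fold higher at 2 weeks (3 ± 0.664 CPM in WT, 30.9 ± 7.39 in KO, n = 6, edgeR adjusted p = 2.46e-09) and 7.58-fold at 12 weeks (adjusted p = 1.43e-07). Egr2, a relative of Egr1, was 18.3-fold higher at 2 weeks (0.226 ± 0.143 against 4.37 ± 1.8 CPM, n = 6, edgeR adjusted p = 1.96e-07). The small GTPase gene Rhob was 2.21-fold higher at 2 weeks, and the antiproliferative gene Btg2 2.32-fold and Ier5 2.36-fold higher at 12 weeks. Each was also called higher at the other duration. The log2 fold change was 2.82 for Egr2 and 0.80 for Rhob at 12 weeks, and 0.93 for Btg2 and 1.06 for Ier5 at 2 weeks.

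The remaining AP-1 and related bZIP genes were mixed. Of 12 tested, 3 rose and 2 fell at 2 weeks (25% and 16.7%, near the 18.2% and 13.4% of all tested genes) and 7 rose and 2 fell at 12 weeks (58.3% and 16.7%, against 20.7% and 17.7%), with medians of 0.19 and 0.49. Maff, a small Maf protein without an activation domain, was 3.8-fold and 2.66-fold higher, and Batf, known from lymphocytes and dendritic cells, was 4.57-fold and 5.22-fold higher at 2 and 12 weeks. Batf was near the floor in WT at 2 weeks (0.296 CPM). Batf3 was 3.39-fold higher at 12 weeks, and Maf stood at 0.77 of WT at 2 weeks. Batf3 was also called higher at 2 weeks (log2 fold change 0.79) and Maf lower at 12 weeks (-0.68). Among 9 other dual specificity phosphatases, 4 rose at each duration (44.4%, against 18.2% and 20.7% of all tested genes) and 5 were not called. Dusp8, which acts on JNK and p38, was 2.22-fold and 2.15-fold higher, Dusp5, a nuclear ERK phosphatase, 2.03-fold and 3.09-fold, Dusp10 1.72-fold at 2 weeks and Dusp2 4.58-fold at 12 weeks. Dusp10 was also called higher at 12 weeks (log2 fold change 1.27), and Dusp2 was not called at 2 weeks (0.73).

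For the kinases and factors upstream of these genes the counts were near those of all tested genes. Of 20 MAP kinases and SRF-ETS regulators, 5 rose and 4 fell at 2 weeks (25% and 20%, against 18.2% and 13.4%) and 4 rose and 6 fell at 12 weeks (20% and 30%, against 20.7% and 17.7%), with medians of -0.05 and -0.01. The smallest adjusted p of this list at each duration was that of Map3k1, an upstream kinase of JNK, which was 1.85-fold and 1.68-fold higher. Elk3, an ETS factor, was 1.47-fold and 1.37-fold higher, Mrtfb 1.28-fold at 2 weeks and Mrtfa, its relative and a partner of serum response factor, 1.85-fold at 12 weeks. Mrtfa was also called higher at 2 weeks (log2 fold change 0.25), and Mrtfb was not called at 12 weeks (0.13). Genes known from other systems to be induced through AP-1 had the largest medians of the pathway lists, 2.74 and 2.78. Of 15 tested, 12 rose at each duration (80%, against 18.2% and 20.7% of all tested genes). At each duration 1 fell (6.67%, against 13.4% and 17.7%). In WT at 2 weeks Il6 (0.07 CPM), Mmp3 (0.18), Il11 (0.24), Timp1 (0.28) and Mmp9 (0.48) were near the floor. Genes so low in WT can pass the filter on low counts through KO and can then hardly be called lower. The count of rises and the medians of this list may partly follow from that. Spp1, which encodes osteopontin, was 17.7-fold and 8.01-fold higher (492 ± 60.8 against 8550 ± 2040 CPM at 2 weeks, n = 6), Lif, an interleukin-6 family cytokine, 21-fold and 7.74-fold, and Cd44, the hyaluronan receptor, 9.86-fold and 7.45-fold. The gene that fell, named after its values were seen, was Ccnd1 at 2 weeks and Mmp13 at 12 weeks. Several genes of that list are also expressed by inflammatory cells.

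**Figure D5:**
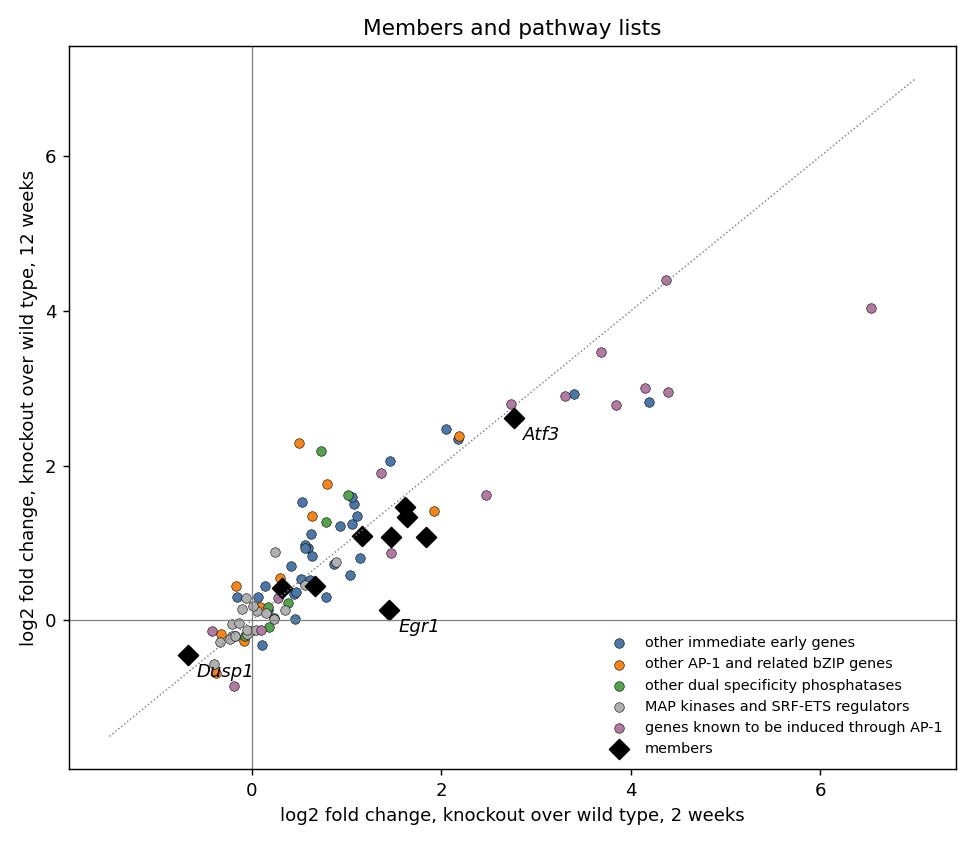
Each point is a gene, with its log2 fold change of KO over WT at 2 weeks on the horizontal axis and at 12 weeks on the vertical axis. The 10 genes (diamonds) range from Dusp1 at -0.68 and -0.45 to Atf3 at 2.77 and 2.61, the MAP kinases and SRF-ETS regulators have medians of -0.05 and -0.01, and the genes known to be induced through AP-1 reach farthest to the upper right.

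Markers of other cells moved with genotype beside these genes. Over all tested genes, 18.2% rose and 13.4% fell at 2 weeks, and 20.7% and 17.7% at 12 weeks. All 10 macrophage markers rose at both durations, with summed levels of 135 to 187 CPM in WT and 416 to 1060 CPM in KO at 2 weeks and 132 to 361 against 603 to 1270 CPM at 12 weeks. Of 8 T cell markers 7 rose at each duration (5.7 to 8.51 against 12.9 to 26.1 CPM, then 5.18 to 12.5 against 22.7 to 112 CPM), and all 4 tested of 7 neutrophil markers rose (3.74 to 9.41 against 11.5 to 25.3 CPM, then 1.73 to 6.06 against 6.76 to 16.4 CPM). Mmp8, Retnlg and Ly6g were too low to be tested. The filter on low counts ran over all 4 groups, so a gene near 0 in WT can pass through KO. Such a gene can hardly be called lower, so these counts may partly follow from the filter. At 2 weeks Cxcr2 had 0.27 CPM in WT and 0.99 CPM in KO, and Cd3d had 0.37 and 1.58 CPM. Fibroblast and pericyte markers rose in 7 of 8 at 2 weeks and in 8 of 8 at 12 weeks (125 to 182 against 503 to 1380 CPM, then 116 to 410 against 550 to 1460 CPM). Proximal tubule markers fell in 9 of 12 and 11 of 12 (30600 to 39400 against 24800 to 39400 CPM, then 37700 to 44500 against 20200 to 31900 CPM), and distal nephron and collecting duct markers in 7 of 11 at each duration. Endothelial markers fell in 2 and 3 of 8 (25% and 37.5%). Of 5 podocyte markers 1 fell at 2 weeks (20%) and 3 rose at 12 weeks (60%). No gene of these lists was at 0 in all 24 libraries. The part of these cell types in the levels of the 10 genes was not tested.

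Lists that bear on handling, hormones and time of day were also read. Of 13 heat shock genes 2 rose and 1 fell at 2 weeks (15.4% and 7.69%, under the 18.2% and 13.4% of all tested genes) and 1 rose and 1 fell at 12 weeks (7.69% each, under 20.7% and 17.7%), with Hspb1 at 2.9-fold and 2.86-fold and Hspd1 at 0.771 and 0.735 of WT, and Dnajb4 1.25-fold higher at 2 weeks. Of 13 glucocorticoid-induced genes, a class to which Dusp1 also belongs, 3 rose and 1 fell at 2 weeks (23.1% and 7.69%) and 5 rose and 2 fell at 12 weeks (38.5% and 15.4%): Mt1 was 1.95-fold and Ddit4 1.6-fold higher at 2 weeks and Mt2 2.4-fold and Angptl4 2.48-fold at 12 weeks, while Errfi1 stood at 0.631 and 0.604 of WT. Of 15 circadian clock genes 1 rose and 6 fell at 2 weeks (6.67% and 40%) and 1 rose and 4 fell at 12 weeks (6.67% and 26.7%), with Tef at 0.699 and 0.631, Hlf at 0.607 and 0.616 of WT, Ciart at 0.58 at 2 weeks and Cry1 2.11-fold higher at 12 weeks. Some genes given at 1 duration were also called at the other. The log2 fold change was 0.46 for Mt1 and -1.19 for Ciart at 12 weeks, and 0.72 for Angptl4 at 2 weeks. Dnajb4 and Ddit4 at 12 weeks and Mt2 and Cry1 at 2 weeks were not called. Adrenal cortex markers summed to at most 6.44 CPM in any library, with Cyp11b1 and Cyp11b2 at 0 in all 24. Of 5 tested adipocyte markers 3 rose in KO at 12 weeks, where the summed level reached 284 CPM. None of these lists was tested for a part in the levels of the 10 genes.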

How the data were processed

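Kidney RNA of 24 libraries was analysed in 4 groups of 6 named by the titles. Per the labels, a Maxwell RSC simplyRNA kit was used for extraction and a NEBNext Ultra RNA kit for the libraries. The deposited values are the authors' unnormalized counts for each Ensembl gene, with a file for each library; fastp, STAR 2.5, HTSeq 0.6.1 and mm10 are named in the submitters' processing notes, and the strand setting and annotation release behind the counts were not given in the sources used here. Symbols, positions and overlaps came from GENCODE M21, which matched 54495 of 54532 identifiers, and promoters from RefSeq, which held 9 of the 10 genes.

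Genes passing filterByExpr (minimum count 10, minimum total 15) over 24 libraries, 17286 in all, were tested with the robust quasi-likelihood F test of edgeR 4.0.16 (R 4.3.3) after TMM scaling, and p-values, two-sided, were Benjamini-Hochberg adjusted over all of them (threshold 0.05). Genotypes were compared in the 12 libraries of each duration; the interaction and the durations were compared in all 24. The SE was the absolute log2 fold change over the square root of F and gave the 95% intervals by the normal distribution. Correlations used log2 CPM (prior count 2) less the group mean, with 1e+05 permutations within groups. No library pair of a group was as alike as sampling noise allows (lowest chi-square over degrees of freedom 5.93). The fitting code was tested on simulated data.

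The 10 genes and the lists were chosen with earlier results of these data known. Named beside the 10 genes are Lrp2, up to 3 called genes of each pathway list and duration by adjusted p, and the 5 nearest to Fos and to Atf3; the rule also took up to 2 genes of each marker list, which are given here as counts and sums. As alternatives the fits were repeated with DESeq2 1.42.0, with RLE or upper-quartile scaling, without the filter or with one at a mean of 1 CPM, with the replicate number as a block, with all 24 libraries in 1 fit, and with each library left out.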

Additional observations from a re-analysis of the deposited data

Results flagged for a closer look

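Of the 40 combinations of gene and group, 3 had 1 library whose gap to its neighbour, as a part of the range of the 6 libraries, exceeded Dixon's 95% critical value, which chance exceeds in about 1 of 20 groups. Fos in KO replicate 3 at 2 weeks (15.8 CPM, the next at 8.6 CPM) had a ratio of 0.667. Jun in KO replicate 6 at 2 weeks, the lowest of its group at 56.1 CPM with the next at 66.8 CPM, had 0.676. Egr1 in KO replicate 4 at 12 weeks (69.8 CPM, the next at 30.8 CPM) had 0.713, and the same library had the highest Fos of its group, 19.5 CPM.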

How the results depend on the processing

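At 2 weeks, 188 of 189 alternative values of the 10 genes kept direction and side of the threshold, and the exception was Jund without KO replicate 2. At 12 weeks 164 of 189 did, 16 lost a call (Fosb and Dusp1), 6 gained one (Jun) and 3 changed sign (Egr1). The number of the 10 genes called lower at 12 weeks was 0 with upper-quartile scaling and with no filter, and 0 to 1 with a library left out. With a library left out, the log2 difference spanned -0.24 to 0.42 for Egr1 at 12 weeks; in the interaction -0.01 (-0.015) to 0.21 for Jund and -0.12 to 0.02 (0.019) for Klf6; between durations in WT -0.06 to 0.10 for Dusp1 (-0.01, or -0.014, with no filter) and -0.07 to 0.02 (0.024) for Klf6, and in KO -0.29 to 0.34 for Fos, -0.39 to 0.002 for Fosb and -0.09 (-0.085) to 0.50 for Egr1. The interaction called 20 genes higher and 10 lower over all tested genes; DESeq2 called 79 and 54, no filter left 6 lower, and leaving out a library gave 17 to 34 higher and 4 to 22 lower. The causes were not tested. Fosb had no value under the mean of at least 1 CPM.

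Equal replicate numbers do not pair the libraries: residual correlations of equal-numbered libraries were -0.28 to 0.17, and at 2 and 12 weeks 0 and 1 of 6 WT libraries were closest to the KO library of their number. With the replicate number as a block, 8 genes were higher and 1 lower at 2 weeks, and 7 and 1 at 12 weeks, where Fosb was not called (log2 fold change 0.998, adjusted p = 0.077) and Jun was (0.47, adjusted p = 0.038). Over all tested genes the block gave 2965 higher and 2138 lower at 2 weeks, 3220 and 2730 at 12 weeks, and 19 and 8 in the interaction. Depth limits Fosb most, with 3 to 41 counts per library.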
